A study of Mus musculus with 10 samples.

Results

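The keratins and bile duct progenitor markers described here are 10 genes, Krt7, Krt8, Krt18, Krt19, Krt23, Epcam, Sox9, Spp1, Cldn4 and Cldn7, chosen by name. Every expression probe that the array files name for them, under the current or an older symbol (Tacstd1 for Epcam), was taken, 14 probes of 41174. Liver total RNA of 1-year-old C57BL/6 mice was measured on 1-colour (Cy3) Agilent mouse arrays, with 1 array for each sample. The 2 groups were 5 wild-type arrays (WT1 to WT5) and 5 arrays of mice lacking the nuclear orphan receptor TAK1/TR4, encoded by Nr2c2 (KO1 to KO5), in a study of fatty liver, inflammation and insulin response in obesity. Strain, age and tissue were shared by both groups, and the labels do not give the allele, the sex, the diet or whether each array holds a separate mouse, so p-values measure only the spread between these samples.

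Keratins form the intermediate filaments of epithelial cells from pairs of a type I and a type II chain. Hepatocytes make the pair K8 (type II, Krt8) and K18 (type I, Krt18), while cells lining the bile ducts add K7 (type II) and K19 (type I). Duct cells and the progenitor-like cells that spread from them during a ductular reaction also carry the adhesion molecule EpCAM, the transcription factor SOX9, osteopontin (Spp1) and tight junction claudins, and these genes are read in liver as marks of that compartment. Osteopontin is also made by macrophages and stellate cells, and SOX9 by stellate cells.

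Genotype can be compared within a slide only on slide 2, which held KO1, KO2, KO3 and, as its single wild-type array, WT5. The other wild-type arrays shared slide 1, and KO5 and KO4 had slides 3 and 4 to themselves, the latter scanned on another day. Between 51.6% and 62.9% of spots were well above background on each array. Correlations between arrays, across genes, ran from 0.988 to 0.994 in wild type and from 0.965 to 0.988 in knockout. At the targeted locus on chromosome 6 (mm7), the probes named Nr2c2 at 92187254 to 92187312 and at 92245007 to 92245066 were above background on all 10 arrays and differed by 0.36 ± 0.13 (SE, adjusted p = 0.144 over probes) and 0.44 ± 0.11 (adjusted p = 0.0428). The labels do not say which part of the gene was deleted, so these probes do not check them. A cDNA probe between them, at 92237812 to 92237871 and listed in the opposite direction, was detected in wild type (5 of 5 arrays) and on 0 of 5 knockout arrays, where it was at least 5.41-fold lower. Its adjusted p of 0.000212 is of the fit on the measured values, which were not above background in knockout.

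The array reads each member through 1 to 3 probes of 60 bases. The probes for Krt8 and Krt18 are shown first, since the comparison of this chain pair rests on them. Capitals mark the longest run that these probes share, 11 bases. The Krt8 probe lies at chr15:101983072-101983131 and the Krt18 probe at chr15:102018067-102018126 (mm7, as the files list them), 34.9 kb apart, and the RefSeq gene table of a later assembly (GRCm38.p6) has 0 protein-coding genes between Krt8 and Krt18.
Krt8 (A_51_P242399): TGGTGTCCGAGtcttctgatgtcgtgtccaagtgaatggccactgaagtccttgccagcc
Krt18 (A_51_P324814): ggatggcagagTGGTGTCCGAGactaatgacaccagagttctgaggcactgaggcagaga

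For 3 probes the listed coordinates span far more than 60 bases, so the probe crosses an exon junction and reads spliced RNA. They are shown because detection differed among them. The span is 829 bases for Epcam (chr17:85952074-85952902), 310 bases for Cldn7 (chr11:70048852-70049161) and 853 bases for a Sox9 probe (chr11:112892041-112892893).
Epcam (A_52_P447944): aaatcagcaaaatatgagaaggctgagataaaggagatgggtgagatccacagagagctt
Cldn7 (A_51_P165185): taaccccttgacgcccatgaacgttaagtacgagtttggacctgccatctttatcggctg
Sox9 (A_51_P451606): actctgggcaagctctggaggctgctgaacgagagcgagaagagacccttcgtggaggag

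The members as a set showed no called difference between knockout and wild-type liver. Of the 10 genes, 9 were measured well enough to be tested, that is, with a signal flagged well above background on 4 or 5 arrays of either group, and 0 of 9 passed the test (limma, adjusted p under 0.05 over 15809 genes), where 5.91% of all genes did. At an unadjusted p under 0.05 there were 3 of 9, Krt23, Krt18 and Krt8, against 23.7% of all genes. Of the 12 probes kept, 0 passed when probes were tested singly, where 5.05% of all probes did. For 0 of 9 members did the knockout arrays lie wholly on 1 side of the wild-type arrays, which held for 9.61% of all genes. Positive differences (knockout minus wild type) were found for 5 members and negative for 4, with a median of 0.16 on the log2 scale, against 0.01 over all genes. Adjusted p-values ran from 0.078 for Krt23 to 0.824 for Krt19. In whole liver, fewer cells of a type and less RNA per cell cannot be told apart.

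**Figure D1:**
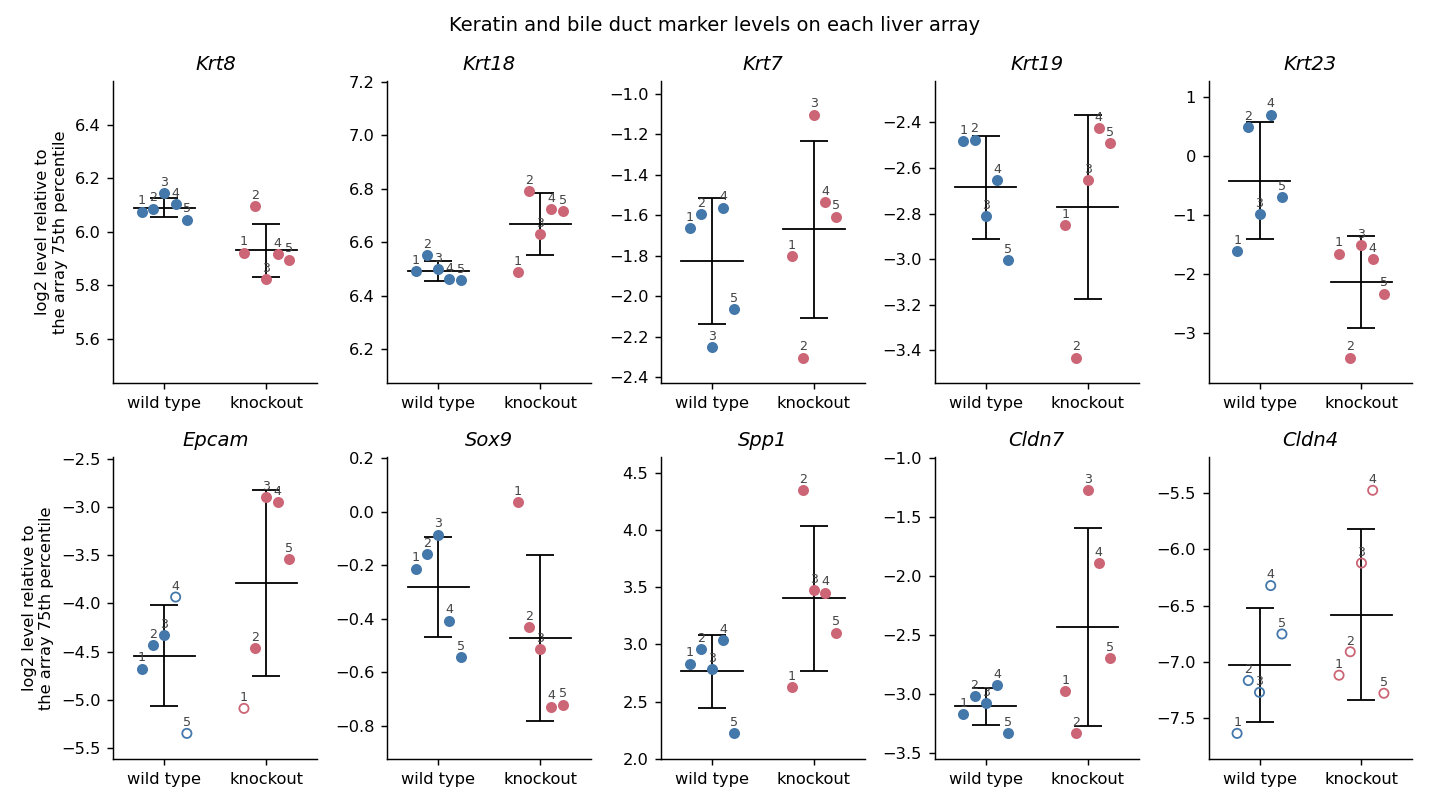
Log2 level of each member relative to the 75th percentile of its array, for 5 wild-type and 5 knockout arrays. Points are arrays with their replicate number, open where the probe was not well above background, bars are mean and SD, and the axis differs between panels. The groups overlap in every panel, including Krt23, where WT1 at -1.61 lies among the knockout arrays.

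The hepatocyte pair Krt8 and Krt18 was bright on all arrays, with 0 saturated spots. Krt18 read 6.49, 6.55, 6.50, 6.46 and 6.46 on WT1 to WT5 and 6.49, 6.79, 6.63, 6.72 and 6.72 on KO1 to KO5, as log2 level relative to the 75th percentile. All knockout arrays but KO1 lay above every wild-type array. The difference was 0.18 ± 0.07 (SE, n = 5 per group, 95% interval 0.02 to 0.33, adjusted p = 0.165), or 1.13-fold, and 0.18 within slide 2.

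Krt8 went the other way by about the same amount. Its brighter probe read 6.08, 6.09, 6.14, 6.10 and 6.05 on WT1 to WT5 and 5.92, 6.10, 5.82, 5.92 and 5.90 on KO1 to KO5. All knockout arrays but KO2 lay below every wild-type array. The difference was -0.16 ± 0.07 (SE, 95% interval -0.31 to -0.01, adjusted p = 0.178), and -0.10 within slide 2. The other Krt8 probe (A_51_P242400, chr15:101982940-101982999) differed by -0.07 ± 0.09, with WT1 at 5.58 and the other 4 wild-type arrays at 5.91 to 6.04. Neither gene passed the test, and neither sign turned under any of the 24 alternatives tried for it.

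Since K8 and K18 polymerise together, the level of Krt18 minus that of Krt8 was taken within each array, which removes any scaling between arrays. This measure was chosen after the values were seen and is given without a test. Set to a wild-type mean of 0, it ran from -0.05 to 0.06 in wild type and from 0.17 to 0.42 in knockout. The knockout mean was 0.34 ± 0.11 (SD, n = 5), and the groups did not overlap. The genes were paired after their opposite differences were seen, which favours such a gap. Among all genes taken singly the groups did not overlap for 9.61%, and the share of gene pairs was not counted. With the other Krt8 probe the measure was 0.25 ± 0.07 in knockout, from 0.16 to 0.33. It was -0.11 to -0.04 on 4 wild-type arrays, but 0.32 on WT1, within the knockout range. How the gap divides between the genes depends on the scaling. Without scaling, all genes shifted by a median of 0.12, and the differences were 0.29 for Krt18 and -0.05 for Krt8. With arrays centred on their median, all genes shifted by -0.09, and these were 0.08 and -0.26.

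**Figure D2:**
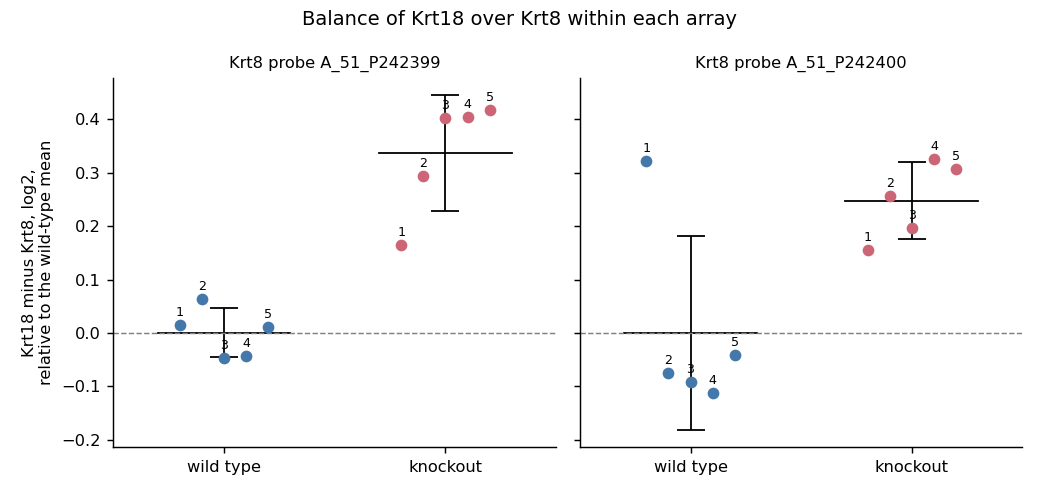
Log2 level of Krt18 minus that of Krt8 on each array, relative to the wild-type mean, for either Krt8 probe. Points are arrays with their replicate number, lines are mean and SD. With the brighter Krt8 probe the wild-type arrays lie at 0.06 or below and the knockout arrays at 0.17 or above, while with the other probe WT1 lies at 0.32.

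Krt7 and Krt19, the keratins of duct cells, showed no called difference. Their intervals below are of the fit without slide and do not bound a difference of genotype apart from slide. With slide as a fixed block the SE was 0.45 for Krt7 and 0.30 for Krt19. Krt19 read -2.48, -2.48, -2.81, -2.65 and -3.00 on WT1 to WT5 and -2.85, -3.43, -2.65, -2.42 and -2.49 on KO1 to KO5. KO2 was the lowest array and the other knockout arrays lay within the wild-type range or just above it. The difference was -0.09 ± 0.19 (SE, 95% interval -0.51 to 0.34, adjusted p = 0.824), and it was 0.025 within slide 2 and 0.08 without KO2.

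Krt7 read -1.67, -1.60, -2.25, -1.56 and -2.07 in wild type and -1.80, -2.30, -1.10, -1.53 and -1.61 in knockout, in array order. KO3 was the highest array and KO2 the lowest. The difference was 0.16 ± 0.22 (SE, 95% interval -0.33 to 0.65, adjusted p = 0.707), and 0.02 without KO3. A dimmer Krt7 probe (A_52_P410685), detected on 4 wild-type and 3 knockout arrays, followed the brighter one over the 10 arrays (Pearson r = 0.904) and differed by 0.08 ± 0.33.

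Krt23, a type I keratin described as a stress-induced keratin of the liver and of ductular reactions, had the largest difference of the 9 genes and the lowest adjusted p. It read -1.61, 0.50, -0.98, 0.71 and -0.69 on WT1 to WT5 and -1.65, -3.41, -1.51, -1.74 and -2.33 on KO1 to KO5. WT2 and WT4 were the highest arrays, KO2 the lowest, and WT1 lay among the knockout arrays. The difference was -1.71 ± 0.50 (SE, 95% interval -2.83 to -0.59), or 3.27-fold lower in knockout, with an adjusted p of 0.078. It was -1.50 within slide 2, between -2.01 and -1.39 when any 1 array was left out, and its adjusted p then ran from 0.060 to 0.172. With slide as a random block the adjusted p was 0.0398, the only alternative under which any member passed.

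**Figure D3:**
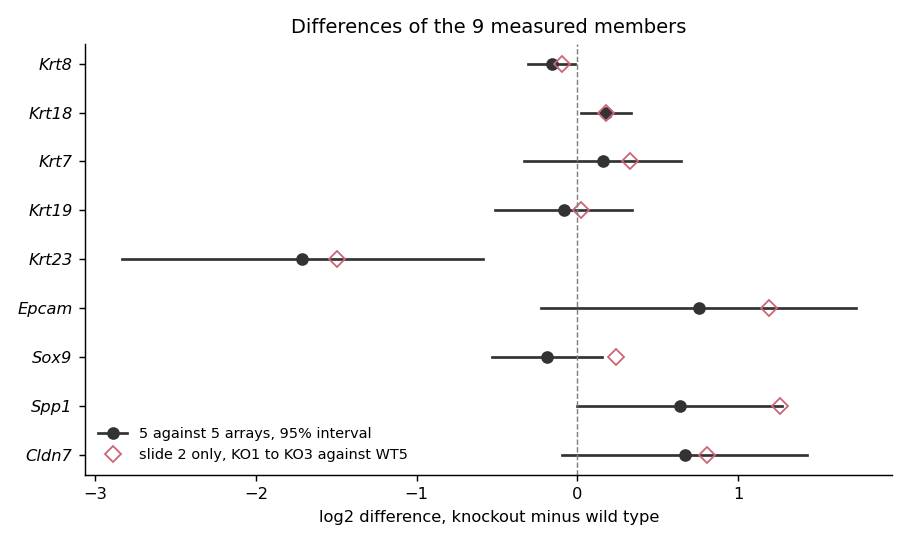
Log2 difference of the 9 tested members, knockout minus wild type, with the 95% interval of the fit (filled circles, 5 against 5 arrays) and the difference within slide 2 (open diamonds, KO1 to KO3 against WT5). Krt23 lies farthest from 0, at -1.71. The diamonds of Sox9, at 0.24, and of Krt19, at 0.025, lie on the other side of 0 from their circles. The diamond of Epcam rests on a WT5 signal not above background.

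Among the surface and junction proteins of duct epithelium, Epcam and Cldn7 were high on some knockout arrays only. Cldn7, a claudin of simple epithelia, read -3.17, -3.01, -3.07, -2.92 and -3.33 in wild type and -2.97, -3.33, -1.27, -1.89 and -2.70 in knockout, in array order. KO3, KO4 and KO5 lay above all wild-type arrays, while KO1 and KO2 lay within or near the wild-type range. The difference was 0.67 ± 0.34 (SE, 95% interval -0.09 to 1.43, adjusted p = 0.268), 0.80 within slide 2, 0.38 without KO3 and 0.41 with normexp background correction.

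Epcam, the epithelial cell adhesion molecule, was near the limit of detection. It was well above background on 3 wild-type arrays (WT1 to WT3) and 4 knockout arrays (KO2 to KO5). It read -4.68, -4.43, -4.33, -3.93 and -5.35 on WT1 to WT5 and -5.09, -4.47, -2.90, -2.95 and -3.54 on KO1 to KO5, so KO3, KO4 and KO5 again lay above every wild-type array. The difference was 0.76 ± 0.44 (SE, 95% interval -0.22 to 1.73, adjusted p = 0.328). Epcam was tested only because enough knockout arrays cleared background, and with another background correction (normexp, with quantile normalization) the difference was 0.27. No value is given within slide 2, where WT5 was not above background. Cldn4, another claudin of duct epithelium, was not well above background on any of the 10 arrays and was left out of the fit, so no fold is given. An exact permutation test on those signals (p = 0.317, two-sided) cannot tell whether Cldn4 differed, since they were not above background.

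Sox9, the transcription factor of duct and progenitor cells, was read by 3 probes. The brightest (A_52_P577484, chr11:112894739-112894798) read -0.21, -0.16, -0.09, -0.41 and -0.54 in wild type and 0.04, -0.43, -0.51, -0.73 and -0.72 in knockout, in array order. KO1 was the highest of all arrays, and KO4 and KO5 the lowest. The difference was -0.19 ± 0.15 (SE, 95% interval -0.53 to 0.15, adjusted p = 0.487), and 0.24 within slide 2, so its sign turned there. It was -0.32 without KO1 and -0.13 without KO4. A second probe with 10 spots on each array, A_52_P214630, differed by -0.09 ± 0.19 and followed the first (Pearson r = 0.938 over 10 arrays). The probe across the exon junction shown above was not above background on any array, so its exact permutation test (p = 0.690) cannot tell whether Sox9 differed.

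Spp1, the secreted matrix protein osteopontin, was measured on 10 spots per array. It read 2.83, 2.96, 2.78, 3.04 and 2.22 on WT1 to WT5 and 2.63, 4.35, 3.48, 3.45 and 3.10 on KO1 to KO5. All knockout arrays but KO1 lay above every wild-type array, and KO2 was the highest. The difference was 0.64 ± 0.29 (SE, 95% interval 0.00 to 1.27, adjusted p = 0.211), or 1.55-fold. It was 1.26 within slide 2, whose wild-type array WT5 was the lowest, and 0.40 without KO2.

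The members did not vary as 1 block from array to array. After the mean of its group was taken from each array, Epcam and Cldn7 deviated together (Pearson r = 0.817 over 10 arrays), as did Krt7 with Cldn7 (r = 0.796) and with Krt19 (r = 0.785). Spp1 deviated with Krt18 (r = 0.758) but not with Cldn7 (r = -0.02), and Krt7 against Krt8 (r = -0.787). These values are descriptions, since all genes of an array share its RNA, labelling and scan. KO3 and KO4 carried the high Epcam and Cldn7 signals, at 1.59 to 1.65 and 1.21 to 1.83 above the wild-type mean. KO2, highest in Spp1 (1.58), was lowest in Krt19 (-0.75) and Krt23 (-2.99). KO1 lay within the wild-type range for Krt7, Krt19, Epcam and Spp1.

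**Figure D4:**
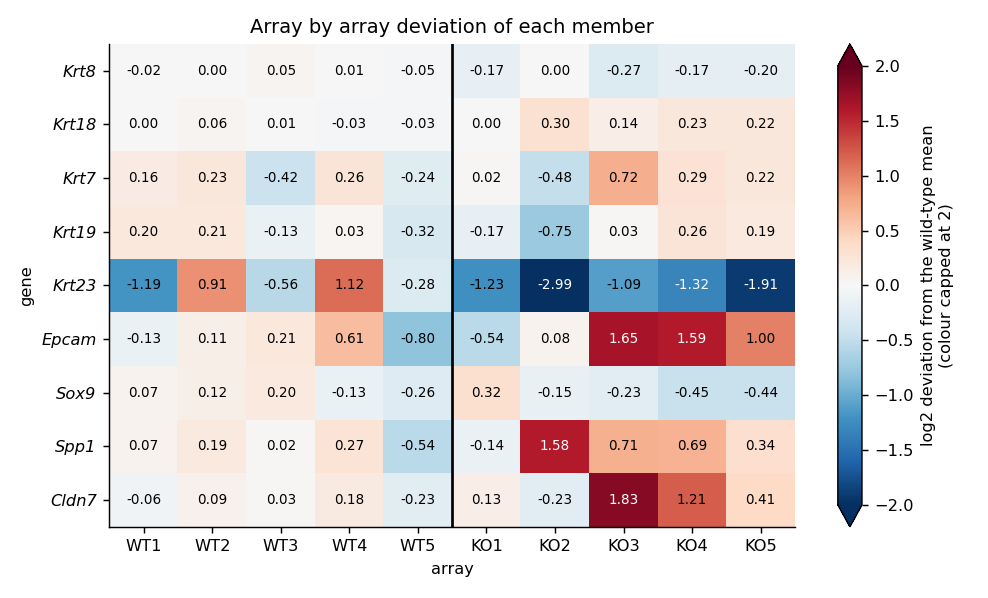
Log2 deviation of each tested member (rows) from its wild-type mean on each array (columns), with the value printed in each cell. The cells of Epcam and Cldn7 are highest on KO3 and KO4, that of Spp1 is highest on KO2, and those of Krt23 are below -1 on all knockout arrays and on WT1.

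The spread between knockout arrays was the larger one for 8 of 9 members, all but Krt23. The ratio of the SDs, knockout over wild type, had a median of 1.84 among them and reached 5.40 for Cldn7. For the other Krt8 probe (A_51_P242400) the ratio was 0.39. A wider knockout spread held for 78.5% of all genes, with a median ratio of 1.61, so it was a feature of the knockout arrays at large. These lay on slides 2, 3 and 4, with KO4 scanned on another day, while all wild-type arrays but WT5 shared slide 1. Genotype, slide and scan day cannot be told apart in this spread.

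Genes whose deviations from the group mean most resembled those of 3 members were sought among 13893 genes above background on all 10 arrays. For Krt18 they were Hgf, the hepatocyte growth factor (r = 0.954), Itgav, an integrin chain that binds osteopontin (r = 0.947), and Cyb561d2 (r = 0.942). For Krt8 they were the transcript TC1491311 (r = 0.965), Arf6 (r = 0.955) and Trak2 (r = 0.955). For Krt23 they were Gabarapl2, an autophagy gene (r = 0.943), the transcript TC1500646 (r = 0.941) and Serinc1 (r = 0.941). The highest of so many correlations over 10 arrays are high by selection, and they are given with no test.

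Other keratins were mostly dim in liver, and 1 of them fell. Of 28 listed, 8 were tested, 1 was lower and 0 higher (3.48% and 2.44% of all genes). Krt79, a type II keratin of hair follicle and sebaceous duct epithelium, cleared background on all 5 wild-type arrays but on 0 knockout arrays. It read -2.71, -3.15, -3.88, -3.41 and -3.02 in wild type and -5.33, -5.95, -4.68, -5.29 and -5.46 in knockout. With the mean of the wild-type arrays set against the detection limit of the knockout arrays, it was at least 2.68-fold lower in knockout. Within slide 2 it was at least 2.78-fold lower. The adjusted p of 0.00232 is of the fit on the measured values (-2.11), which were not above background in knockout. Krt79 was tested only through the wild-type group. With slide as a fixed block it did not pass (adjusted p = 0.222), and neither did any other of the 10 listed genes called here and below. The other 7 ranged from -0.18 for Krt10 to 0.57 for Krt1 (adjusted p of 0.262 and 0.163).

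Of the further biliary and ductular markers 0 of 21 were called, where 5.91% of all genes were. A positive difference was found for 17 (51.9% of all genes) and an unadjusted p under 0.05 for 5 (23.7% of all genes). The list was chosen with earlier results of these data known, so these counts are descriptions. The median of the list was 0.17, or 0.12 within slide 2, 0.28 without scaling and 0.07 with arrays centred on their median. The lowest p belonged to Cdh1, the E-cadherin gene, which is also expressed by hepatocytes, at 1.63 ± 0.43 (SE, 3.10-fold, adjusted p = 0.0526). It read from -2.33 on WT1 to 0.14 on WT3, and from 0.08 on KO3 to 1.34 on KO1, so the groups overlapped at WT3 and KO3. Cdh1 passed under 5 of the alternatives, among them normexp (adjusted p = 0.0368) and leaving out WT3 (adjusted p = 0.0462). The duct epithelium markers Prom1, Muc1, Sctr and Ehf were not above background on any array. The summed signal of the 21 genes tested from this list was 58.7 to 63.2 in wild type and 66.9 to 74.2 in knockout. These sums, in multiples of the 75th percentile, did not overlap. The median deviation of these genes from the wild-type mean did overlap, at -0.05 to 0.09 in wild type and 0.04 to 0.34 in knockout. KO1 and KO5 lay inside the wild-type range. Sums of the osteopontin receptor list below did not overlap either, at 39.09 to 40.97 in wild type and 32.49 to 39.08 in knockout. Nor did those of the pancreatic and intestinal list, at 52.8 to 60.8 and 15.9 to 40.8. Both were lower in knockout, and a sum is carried by the brightest genes of its list.

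Notch and Hippo-YAP pathway genes, which steer duct cell fate, included 3 of 27 that changed, against 5.91% of all genes. The count was 1 without scaling. Ccn2, a secreted YAP target also known as Ctgf, rose 2.26-fold (1.18 ± 0.25, adjusted p = 0.0263), from 0.36 to 1.03 across wild-type arrays to 0.97 to 2.45 across knockout arrays. Lats2, a kinase that restrains YAP, rose 1.23-fold (0.30 ± 0.06, adjusted p = 0.0255). Wwtr1, which encodes the YAP partner TAZ, fell 1.46-fold (-0.54 ± 0.08, adjusted p = 0.00734). Within slide 2 these were 1.66, 0.22 and -0.42. Ccn2 no longer passed when WT1, WT2, WT5 or KO4 was left out (adjusted p up to 0.069). Lats2 no longer passed when any wild-type array, KO4 or KO5 was left out (adjusted p up to 0.067), and Wwtr1 passed each time. Without scaling, Lats2 (adjusted p = 0.090) and Wwtr1 (adjusted p = 0.107) did not pass, and with arrays centred on their median Lats2 differed by 0.20 (adjusted p = 0.204). The Lats2 value is of its brightest kept probe, and with the mean of its kept probes it was 0.24 (adjusted p = 0.103). Over the list the median was 0.02.

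Of the osteopontin receptors and related glycoproteins 10 were tested and 2 changed. The share of all genes, to be set beside each count called in this paragraph, was 5.91%. The integrin chain Itgb3 rose 1.48-fold (0.56 ± 0.09, adjusted p = 0.00873; 0.40 within slide 2) and kept its call without each array in turn. That value is of the brighter of its 2 probes, and with their mean it was 0.33 (adjusted p = 0.0328). Itgb5 fell 1.22-fold (-0.29 ± 0.07, adjusted p = 0.0415; -0.30 within slide 2), which failed the test when any array but KO3 was left out (adjusted p up to 0.094). It also failed without scaling (-0.18, adjusted p = 0.469) and with quantile normalization or normexp (adjusted p = 0.081 each). Among other claudins and tight junction genes 1 of 23 changed, near the share of all genes. It was the polarity gene Pard6b (0.38 ± 0.08, adjusted p = 0.0223), at 0.35 within slide 2. Pard6b failed when WT2, WT3 or WT4 was left out (adjusted p up to 0.067). It also failed without scaling (adjusted p = 0.066) and with arrays centred on their median (0.28, adjusted p = 0.146). Partners of keratin filaments and of keratin aggregates showed 0 of 21 called and a median of -0.02. Their lowest p belonged to the desmosome gene Pkp2 (-0.22 ± 0.09, adjusted p = 0.179). Of the SOX family 0 of 13 were called, with Sox13 at 0.30 ± 0.15 (adjusted p = 0.264). Sox13 was 0.63 within slide 2, and it passed without KO4 (0.43, adjusted p = 0.0479).

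Oncofetal and dedifferentiation genes gave 2 of 7 higher, against 2.44% of all genes. The list was chosen with earlier results of these data known, and Tff3 entered only through the group where it was high. This count is therefore no test of the list. Tff3, a trefoil peptide of mucosal epithelia, rose (2.35 ± 0.49, adjusted p = 0.0253). It cleared background on 2 arrays of wild type and 5 of knockout and was tested only through the knockout group, so the size is uncertain, at 1.29 with normexp and 1.03 within slide 2. It failed the test when WT2 or KO5 was left out (adjusted p up to 0.069). The growth factor gene Igf2 rose 1.73-fold (0.79 ± 0.14, adjusted p = 0.0136; 0.95 within slide 2), called without each array in turn, and by 0.37 with normexp (adjusted p = 0.0453).

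**Figure D5:**
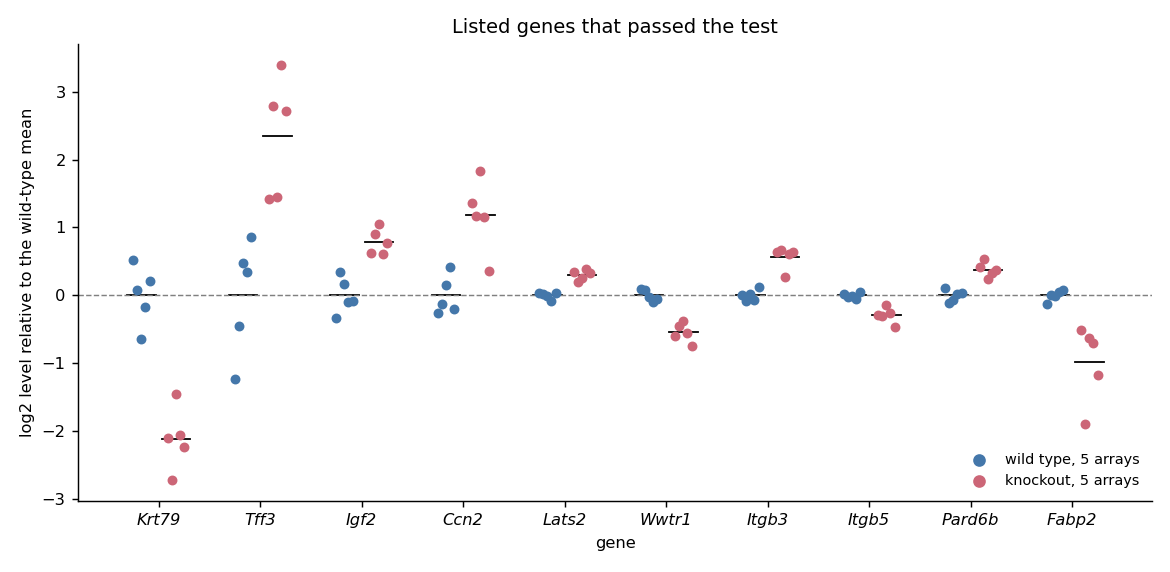
Log2 level relative to the wild-type mean of the 10 listed genes outside the members that passed the test, on 5 wild-type and 5 knockout arrays (points, with group means as lines). Krt79 lies lowest in knockout, with a mean difference of -2.11 that rests on signals below the detection limit there. The wild-type points of Tff3, whose difference is 2.35, include 3 arrays not above background.

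Among markers of other cells that make these proteins, 0 were called in each of the hepatocyte, macrophage and stellate lists, where 5.91% of all genes were. Of 22 hepatocyte markers 6 had a positive difference, with a median of -0.06, or -0.18 within slide 2 and 0.05 without scaling, and on KO2 their median was -0.25 from the wild-type mean. Their lowest p belonged to Pck1 (0.46 ± 0.13, adjusted p = 0.0593), which passed under 4 alternatives. Of 17 macrophage markers, from cells that also make osteopontin, 10 had a positive difference, with a median of 0.27, or 0.56 within slide 2. Their lowest p belonged to Cd9 (0.51 ± 0.14, 0.97 within slide 2, adjusted p = 0.064), which passed under 4 alternatives. Their summed signal overlapped, at 81.1 to 163.9 in wild type and 78.3 to 178.4 in knockout, with WT5 and KO1, the arrays lowest in Spp1, among the 3 lowest. KO2, the highest in Spp1, had a sum of 141.2, below WT4 and KO3. Their part in the Spp1 values was not tested. Of 17 stellate cell and fibroblast markers 13 had a positive difference, with a median of 0.12. Hhip had the lowest p (1.05 ± 0.35, 1.65 within slide 2, adjusted p = 0.106), and the summed signal was 104.4 to 129.4 in wild type and 116.7 to 144.4 in knockout.

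Mesothelial cells, which also carry K7, K8, K18 and K19, left 7 of 10 markers tested, 0 called and a median of 0.03. The lowest p among them belonged to Krt5, a keratin of basal and mesothelial cells, at 0.48 ± 0.41 (adjusted p = 0.516), with KO4 the highest array. Krt5 cleared background on 3 wild-type and 4 knockout arrays and was tested only through the knockout group. KO4 read -2.19 and the other knockout arrays -4.67 to -3.59, against -4.52 to -4.08 in wild type. The summed signal of the mesothelial markers was 0.94 to 2.25 in wild type and 0.89 to 2.31 in knockout. It was lowest on KO2 and WT3, where Krt7 was also lowest, and highest on KO3, where Krt7 was highest. This co-movement was not tested. Of 18 pancreatic and intestinal genes 4 were tested, and the pancreatic genes Cpb1, Cela2a, Pnlip, Amy2a5 and Ins2 were not above background on any array, while Cpa1, Cela3b, Prss2, Ins1 and Gcg cleared it on some arrays, too few to be tested. The 1 that changed, where 5.91% of all genes did, was Fabp2, a fatty acid binding protein that was bright in all livers. It fell 1.97-fold (-0.98 ± 0.23, adjusted p = 0.0392), with -1.09 within slide 2. Fabp2 failed when any wild-type array, KO4 or KO5 was left out (adjusted p up to 0.091) and without scaling (adjusted p = 0.087). Lymphocyte and neutrophil markers had 0 of 9 called, with Cd4 at 0.45 ± 0.23 (adjusted p = 0.266), and a summed signal of 1.60 to 5.20 in wild type and 1.38 to 6.33 in knockout.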

How the data were processed

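Scans were quantified by the authors with Feature Extraction, version 9.5.1.1 in the file headers and 9.5 in the submitters' processing notes. Per the file headers, the authors' intensity values had been corrected for background and spatial trend on each array, with no scaling across arrays. The series table repeated them (largest difference 0). Coordinates are the files', build mm7, and no genome was used to place probes in exons or untranslated regions.

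For the present values, log2 was taken without a pseudocount and the 75th percentile of the non-control spots on an array was subtracted. Outlier spots by the files' flags (7 of the 100 Spp1 spots) were left out, and the remaining spots of a probe averaged. A probe was kept if well above background (at least 50% of its spots) on at least 4 of 5 arrays of a group, which left 23266 of 41174. Symbols were updated through the RefSeq gene table by accession (22951 probes), current symbol (6659) or older symbol (3109), and 8455 kept the files' name. The kept probe with the highest mean signal stood for a gene.

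The comparison used limma 3.58.1 (R 4.3.3; lmFit, eBayes), two-sided, with Benjamini-Hochberg adjustment over 15809 genes, and, for single probes, over kept probes. Values after ± are SE of the fit unless marked SD. Within slide 2 means KO1 to KO3 minus WT5. Members and lists were chosen with earlier results of these data known. From each of 14 lists up to 4 called genes per direction with the smallest p were named, otherwise the 1 with the smallest p, and for 3 members the 3 most similar genes. The fit was tested on simulated data with the spreads of these genes and no slide effect. There 46% of log2 changes of 0.5 and 76% of changes of 1 were called. The median SE was 0.22 for the members and 0.12 for all genes, so changes of this size in a member could be missed. The number of arrays limits the precision.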

Additional observations from a re-analysis of the deposited data

Results flagged for a closer look

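Of 24 groups of 5 arrays checked over the 12 kept member probes, 1 held an array far from the rest, and chance flags about 1 in 20. The dimmer Krt8 probe (A_51_P242400) read 5.58 on WT1, against 5.91 for the nearest wild-type array and 6.04 for the highest. The gap was 0.719 of the range of the group. The brighter Krt8 probe read 6.08 on WT1, within the other wild-type arrays.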

How the results depend on the processing

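Over 24 alternatives, 202 of 210 values of members kept both their sign and their side of the threshold. With slide as a random block 1 member and 1 member probe (Krt23) passed, and 0 under each other alternative. The sign of Krt19 turned without scaling (0.024), with slide as a fixed block or slide 2 only (0.025 each), with array weights (0.022) and without KO2 (0.080, the highest of a range from -0.17 when 1 array was left out). That of Sox9 turned with slide as a fixed block or slide 2 only (0.24 each), as did that of Cd4 (-0.32 each). With slide as a fixed block the value is that within slide 2. The cause of these turns was not tested. With normexp, 11 values of members and named genes were smaller in size by over 1.5 times. Among them were 0.27 for Epcam, 0.41 for Cldn7, -0.95 for Krt79, 1.29 for Tff3 and 0.37 for Igf2. That setting adds an offset of 50 to every intensity before quantile normalization, which by itself makes differences of dim probes smaller. The part of the offset in these values was not tested. Calls lost under other scalings are given beside each gene. With no filter on dim probes, Lats2, Ccn2, Pard6b, Itgb5, Fabp2 and Tff3 did not pass (adjusted p from 0.070 to 0.165).

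Of all genes 935 passed, 41.2% of them higher in knockout. The count was 470 without scaling (66.8% higher), 711 with arrays centred on their median (21.5% higher), 247 with no filter on dim probes, 38 with slide as a fixed block, 1441 with slide as a random block and 4 on slide 2 alone. It ran from 304 to 1160 when 1 array was left out, and was 485, 304, 511, 445 and 471 without WT1 to WT5, and 551 and 493 without KO4 and KO5. The replicate numbers did not pair the arrays: deviations of same-numbered arrays correlated at -0.21 to 0.04 and 0 of 10 arrays correlated best with their own number. With the replicate number as a block 166 genes and 0 members passed. With slide as a fixed block 0 of the 10 listed genes that passed still did, and with slide as a random block 10 did. Probes near the detection limit (Epcam, the dimmer Krt7 probe) are the least certain.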

Other observations

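Aqp1, the water channel of bile duct and endothelial cells, was chosen after its values were seen. It was 0.46 ± 0.16 higher in knockout (adjusted p = 0.125), with all 5 knockout arrays above all wild-type arrays. The groups did not overlap for 9.61% of all genes. Within slide 2, against WT5 alone, the Aqp1 difference was 1.03. Clec4f, a marker of Kupffer cells, was also named outside the rule for the lists. It differed by 0.72 ± 0.21 (adjusted p = 0.0767). Neither Aqp1 nor Clec4f passed the test. Of the 17 macrophage markers tested 0 were called, and 10 had a positive difference (51.9% of all genes).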
